A study of Mus musculus with 6 samples.

Results

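Mitosis is driven by the kinase CDK1 with its A- and B-type cyclins. Polo and Aurora kinases build the spindle, kinetochores tie chromosomes to it, and the spindle checkpoint holds the anaphase-promoting complex in check until every kinetochore is attached. Transcripts of these genes are made mainly in G2 and M phase, so their level in a culture is commonly read as a sign of how many cells are cycling. A set of 35 such genes was followed here: cyclins and CDK1, mitotic kinases, checkpoint and kinetochore genes, kinesin motors, spindle-associated proteins, condensation genes and the anaphase-promoting complex with its targets. They were chosen by name, from the gene name that the array files give each probe, with earlier results of these data known. All 35 were on the array, with 65 of its 56605 probes, among 27195 named genes.

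The arrays compared bone marrow stromal cells of mice lacking the long non-coding RNA gene NONMMUT002667 (KO, 3 samples) with those of wild-type mice (WT, 3 samples). All samples are labelled male. They came from femurs and were sorted for Sca-1 and CD29 and against CD45 and CD11b before culture to the first passage. The strain, age, kind of deletion and number of mice per sample are not given in the sources used here, so p-values cover the spread between these 6 samples, which may be technical. Each sample was hybridised with 1 colour to 1 array.

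All 6 arrays lay on 1 slide and shared 1 scan time, with the KO arrays in one row of the slide and the WT arrays in the other, so slide row and genotype cannot be told apart. Of the non-control spots, 49.0% to 53.02% were well above background on KO arrays and 54.3% to 56.7% on WT arrays. Despite the male label, Xist, the RNA of the inactive X chromosome, was well above background on KO replicate 1 (log2 signal -0.36) and WT replicate 3 (-0.53), and lay between -6.84 and -5.86 on the other 4. Eif2s3y, which is Y-linked, was not well above background on either of those 2 arrays. Results are therefore also given without them. Transcripts of the depleted markers were present, since all 15 macrophage markers, with Ptprc (CD45) and Itgam (CD11b) among them, were well above background on all 6 arrays. No probe is annotated with the name of the deleted RNA, so the knockout was not checked on its target.

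By group means, the mitosis and spindle genes stood slightly higher in KO cells, and no single gene passed the test. The genes moved together from array to array, so counts over the 35 are not counts of independent observations. Of the 35, 34 had a positive log2 difference (KO minus WT), against 55.8% of the 15371 genes tested, and the median difference was 0.27, a 1.21-fold level, against 0.02 over all genes tested. Single differences ran from -0.02 for Pttg1 to 0.40 for Cdk1. In limma with Benjamini-Hochberg adjustment over all 28607 probes tested, 0 of the 35 had an adjusted p under 0.05 in either direction, and the smallest adjusted p was 0.145. That threshold was passed by 0.013% of all genes on the higher side and 0.0651% on the lower side. At an unadjusted limma p under 0.05, 11 of the 35 were higher in KO, against 6.94% of all genes, and 0 were lower, against 8.03%. The 11 were Cdk1, Ttk, Bub1, Bub1b, Birc5, Cenpe, Spc25, Kif20a, Nusap1, Ncapg and Espl1, and all of them but Ncapg had groups that did not overlap. All 3 KO values lay above all 3 WT values for 10 of the 35, against 12% of all genes, and for 0 below them, against 10.4%. All 35 were well above background on all 6 arrays, so none entered through a filter that favours 1 group.

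The 35 genes moved together from array to array, and the WT arrays differed among themselves. Each gene's log2 signal was set against its own mean over the 6 arrays. The median of these deviations was 0.07, 0.08 and 0.25 on KO replicates 1, 2 and 3, against 0.13, -0.16 and -0.34 on WT replicates 1, 2 and 3. WT replicate 1 thus sat among the KO arrays, and WT replicates 2 and 3 sat below all of them. The SD of these medians over arrays, pooled within the groups, was 0.18. WT replicate 3 held the lowest of the 6 values for 33 of the 35 genes (14.7% of all genes have their lowest value there), and WT replicate 2 for the other 2. KO replicate 3 held the highest value for 26 (15.9% of all genes). KO replicate 1 exceeded WT replicate 1 for 13 of the 35 and KO replicate 2 for 15, while KO replicate 3 did so for 28. By contrast, KO replicate 1 exceeded WT replicate 2 for 35 and each other KO array for 34, and every KO array exceeded WT replicate 3 for all 35.

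**Figure D1:**
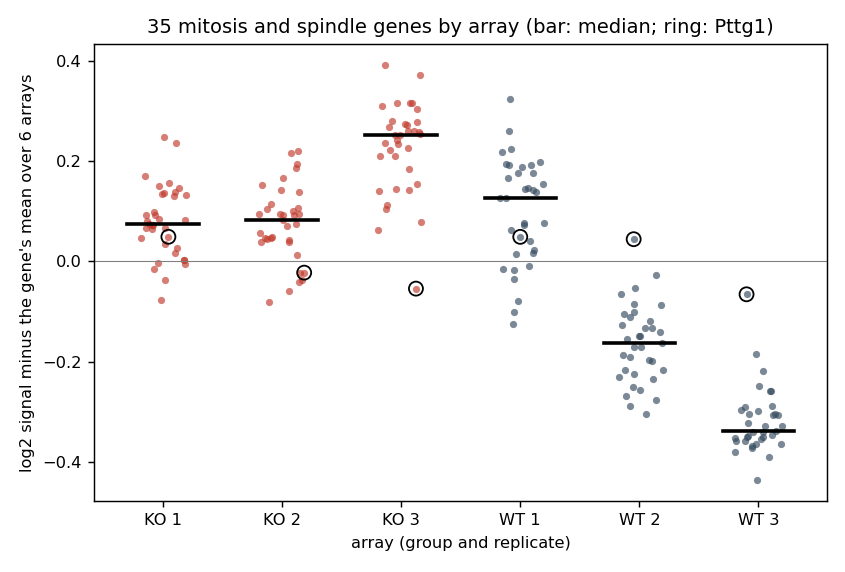
Log2 signal of each of the 35 genes minus that gene's mean over the 6 arrays, by array, with KO arrays in red and WT arrays in dark blue. The median (bar) was 0.07 to 0.25 on KO arrays, against 0.13 on WT replicate 1, -0.16 on WT replicate 2 and -0.34 on WT replicate 3; Pttg1 (ring) stayed near 0.

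The spread within groups was also unequal. The SD over 3 samples had a median of 0.11 in KO and 0.22 in WT over the 35 genes, and was larger in WT for 32 of them. Over all genes tested the median SD was 0.114 in KO and 0.116 in WT, and 49.7% of genes had the larger SD in WT. The counts above also changed when single arrays were left out. Without WT replicate 1, 31 of the 35 had an unadjusted limma p under 0.05 on the higher side (5.32% of all genes in the same fit) and 34 had KO values above both remaining WT values (16.9% of all genes), with a median difference of 0.38. Without WT replicate 3, 2 had such a p (5.18% of all genes) and the median was 0.17. Leaving out WT replicate 2 gave a count of 4 (4.77% of all genes), KO replicate 2 one of 5 (5.28%), and KO replicate 3 one of 2 (5.19%). Without both arrays with Xist signal, 33 of the 35 stayed positive with a median of 0.20, and 3 had an unadjusted limma p under 0.05 (4.9% of all genes). In each of these fits 0 of the 35 passed the adjusted threshold.

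**Figure D2:**
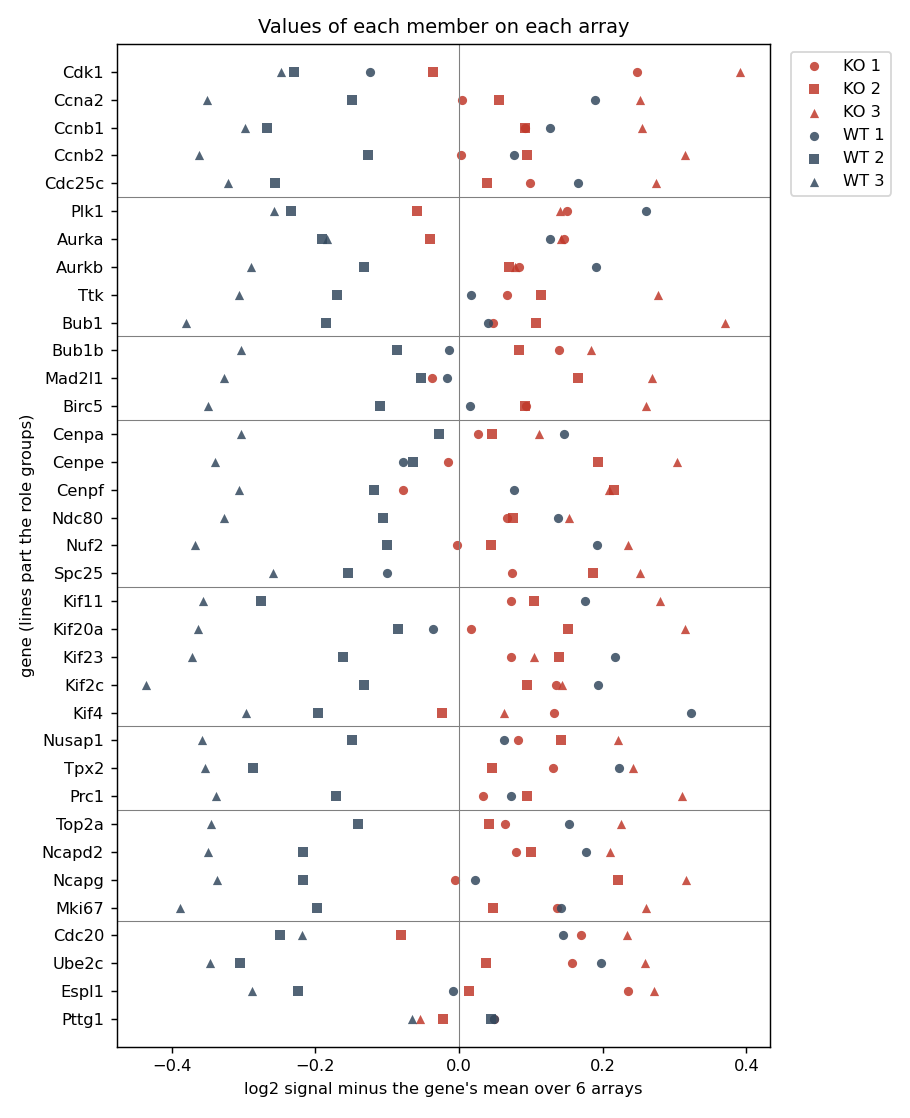
Deviation of each array from the gene's mean over 6 arrays (log2), 1 row per gene, in role groups parted by lines, with KO in red and WT in dark blue and a marker shape per replicate number. The WT replicate 3 triangle is the leftmost point in 33 of 35 rows, and the KO and WT points overlap in 25 rows. Over all genes, 12% had all KO values above all WT values and 10.4% had them all below.

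G2/M genes are known to share promoter elements: CCAAT boxes, bound by the factor NF-Y, and a cell cycle genes homology region (CHR), bound by the MuvB complex with its DREAM or MYBL2 partners. In RefSeq promoter windows (GRCm38.p6, 250 bases before to 50 after the gene start, held for all but Ccna2, Cdc25c, Aurkb, Kif20a and Tpx2, so for 30 of the 35 genes), both strands were searched for TTTGAA and TTCGAA as CHR letters and for CCAAT. The words can overlap at their ends, and each is then counted. A CHR word was found in 23 of 30 windows (76.7%), against 19.4% of all 27025 gene windows and 14.7% of the 11597 windows of genes tested on the arrays. CCAAT was found in 76.7% of the 30 windows, against 37.9% of all windows, and both elements together in 70.0%, against 7.7%. The 106 windows of other mitotic genes listed further on held a CHR word in 47.2% and CCAAT in 57.5%. The 24 windows of DNA replication genes held a CHR word in 16.7% and CCAAT in 66.7%. The 23 genes with a CHR word had a median log2 difference of 0.27 and the 7 without one of 0.29. These are matches of letters only, not measured binding.

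Promoters are printed, 5′ to 3′ and to 30 bases after the start, for the gene with the largest difference (Cdk1), a cyclin with both elements (Ccnb2), the gene with the smallest p (Spc25) and the gene that did not follow the others (Pttg1). Capitals mark TTTGAA and CCAAT on either strand. All lie on the minus strand of GRCm38.p6, at chr10:69352883-69353162, chr9:70421525-70421804, chr2:69206184-69206463 and chr11:43425952-43426231 in that order.
Cdk1: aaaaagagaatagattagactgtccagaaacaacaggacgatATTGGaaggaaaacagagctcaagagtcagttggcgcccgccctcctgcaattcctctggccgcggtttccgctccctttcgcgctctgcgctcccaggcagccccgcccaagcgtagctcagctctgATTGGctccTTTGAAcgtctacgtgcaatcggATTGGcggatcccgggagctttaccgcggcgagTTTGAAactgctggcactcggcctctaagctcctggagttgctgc
Ccnb2: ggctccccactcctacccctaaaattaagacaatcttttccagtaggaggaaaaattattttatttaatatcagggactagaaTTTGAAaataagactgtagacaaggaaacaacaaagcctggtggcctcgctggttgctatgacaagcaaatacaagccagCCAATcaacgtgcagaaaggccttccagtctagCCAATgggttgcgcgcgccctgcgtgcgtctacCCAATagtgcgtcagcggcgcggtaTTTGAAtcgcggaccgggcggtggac
Spc25: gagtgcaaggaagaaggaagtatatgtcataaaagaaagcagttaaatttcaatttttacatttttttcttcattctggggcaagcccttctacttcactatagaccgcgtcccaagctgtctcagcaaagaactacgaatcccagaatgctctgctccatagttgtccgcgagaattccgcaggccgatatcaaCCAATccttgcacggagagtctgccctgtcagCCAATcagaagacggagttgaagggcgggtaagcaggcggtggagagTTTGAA
Pttg1: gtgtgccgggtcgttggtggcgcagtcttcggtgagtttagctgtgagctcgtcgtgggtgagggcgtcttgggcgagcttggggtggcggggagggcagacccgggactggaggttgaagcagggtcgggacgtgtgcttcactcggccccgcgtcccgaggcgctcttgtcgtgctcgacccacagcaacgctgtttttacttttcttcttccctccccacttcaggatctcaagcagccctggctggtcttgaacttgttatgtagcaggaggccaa
The Cdk1 window held TTTGAA from 71 and 15 bases before the start and CCAAT, read on the other strand, from 208, 80 and 48 bases before it. The Ccnb2 window held 3 CCAAT words, from 87, 54 and 21 bases before the start, and TTTGAA from 167 bases before it and from base 5 after it. In Spc25 the CCAAT words began 55 and 23 bases before the start and TTTGAA at base 25 after it. None of these words occurred in the Pttg1 window. This was not particular to Pttg1. The windows of Mad2l1, Birc5, Nuf2 and Nusap1 held none of them either, and these genes had differences of 0.26, 0.30, 0.18 and 0.30.

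Signals below are log2 processed signals relative to each array's 75th percentile, for the gene's brightest tested probe, and differences are KO minus WT with the standard error of the limma fit (n = 3 each). Probe positions are those of the files (mm9). Levels of different genes are not compared, because probes differ in brightness.

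Among the cyclins and CDK1, all 5 genes had positive differences (0.21 to 0.40). Of these, 1 had an unadjusted limma p under 0.05, against 6.94% of all genes on the higher side. Cdk1, the kinase that starts mitosis (chr10:68805423-68807832), had signals of 1.64, 1.36 and 1.79 on KO arrays and 1.27, 1.17 and 1.15 on WT arrays. The groups did not overlap, and WT replicate 1 stood close to the other WT arrays for this gene. Its difference was 0.40 ± 0.12, 1.32-fold (limma adjusted p = 0.204). Ccnb1, the B-type cyclin that CDK1 needs for mitotic entry, had 2.14, 2.14 and 2.30 in KO and 2.18, 1.78 and 1.75 in WT. Here WT replicate 1 lay within the KO values. All 4 Ccnb1 probes tested gave positive differences, from 0.24 to 0.31. Ccnb2 had a difference of 0.28 ± 0.14, Cdc25c, whose phosphatase removes the inhibitory phosphates of CDK1, 0.27 ± 0.15, and Ccna2, the cyclin of S and G2 phase, 0.21 ± 0.15, each with overlapping groups.

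All 5 mitotic kinases had positive differences (0.15 to 0.35), and for 3 of them the groups overlapped. Over all genes, 12% had all KO values above all WT values and 10.4% had them all below. Bub1, a checkpoint kinase of the kinetochore (chr2:127626988-127627047), had 0.58, 0.64 and 0.91 in KO and 0.58, 0.35 and 0.16 in WT. KO replicate 1 and WT replicate 1 were almost equal (difference of the means 0.35 ± 0.14, 1.27-fold; limma adjusted p = 0.2996). Ttk, which encodes the checkpoint kinase MPS1 (chr9:83765807-83765866), had -0.68, -0.64 and -0.47 in KO and -0.73, -0.92 and -1.06 in WT. Its difference was 0.31 ± 0.11 (limma adjusted p = 0.263), and its 4 tested probes ranged from 0.21 to 0.79. Both probes with the differences near 0.79 were dim, with signals from -4.12 to -1.73. Plk1, the polo kinase of spindle assembly, had 3.28, 3.07 and 3.27 in KO and 3.39, 2.89 and 2.87 in WT, so that the highest value was a WT one. The same held for Aurkb, the kinase of the chromosomal passenger complex, with 0.81, 0.80 and 0.81 in KO and 0.92, 0.60 and 0.44 in WT. Aurka, the centrosomal Aurora kinase, had a difference of 0.17 ± 0.12.

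The 3 checkpoint and passenger genes had differences between 0.26 and 0.30. Bub1b, which encodes the checkpoint protein BUBR1 (chr2:118466830-118466889), had 0.17, 0.12 and 0.22 in KO and 0.02, -0.05 and -0.27 in WT, with no overlap (difference 0.27 ± 0.10; limma adjusted p = 0.262). Birc5, which encodes survivin of the passenger complex (chr11:117716959-117717018), had 4.79, 4.78 and 4.95 in KO and 4.71, 4.58 and 4.34 in WT. The gap between the lowest KO and the highest WT value was small against the range of the WT arrays (difference 0.30 ± 0.11; limma adjusted p = 0.290). Mad2l1, the checkpoint protein that binds CDC20, had a difference of 0.26 ± 0.12 with overlapping groups.

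The kinetochore group held the smallest p of the set. Spc25, a subunit of the NDC80 complex that binds microtubules (chr2:69031953-69032012), had 3.95, 4.07 and 4.13 in KO and 3.78, 3.73 and 3.62 in WT. Neither group was wide, and all KO values lay above all WT values by this probe and by its second one (differences 0.34 ± 0.09, 1.27-fold, and 0.37 ± 0.10; limma adjusted p = 0.145 and 0.159). Cenpe, the kinetochore kinesin that moves chromosomes to the spindle equator (chr3:134936387-134936446), had 2.57, 2.78 and 2.89 in KO and 2.51, 2.52 and 2.25 in WT (difference 0.32 ± 0.12; limma adjusted p = 0.277). In 2 other subunits of that complex the groups overlapped. Ndc80 had a difference of 0.20 ± 0.13 and Nuf2 one of 0.18 ± 0.15, with WT replicate 1 inside the KO range for both. Cenpf, a large kinetochore protein of G2 and M phase, had 0.23 ± 0.13. Cenpa, the histone H3 variant of centromeres (chr5:30974916-30975386), had 1.88, 1.90 and 1.96 in KO and 2.00, 1.82 and 1.55 in WT, the highest value being that of WT replicate 1 (difference 0.12 ± 0.12; limma adjusted p = 0.693).

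Among the kinesin motors, 1 of 5 had an unadjusted limma p under 0.05, against 6.94% of all genes on the higher side. Kif20a, the motor of the central spindle in cytokinesis (chr18:34792251-34792310), had 1.72, 1.86 and 2.02 in KO and 1.67, 1.62 and 1.34 in WT, without overlap (difference 0.32 ± 0.12; limma adjusted p = 0.285). Kif4, a chromosome-bound motor encoded on the X chromosome (chrX:97922085-97922145), had -0.66, -0.81 and -0.73 in KO and -0.47, -0.98 and -1.09 in WT. WT replicate 1 was its highest value and the difference of 0.11 ± 0.17 was within the spread (limma adjusted p = 0.802); it was -0.0062 without WT replicate 3 and -0.044 without both arrays with Xist signal. Kif11, the motor that pushes spindle poles apart, had a difference of 0.30 ± 0.15, Kif2c, which takes microtubule ends apart, 0.25 ± 0.16, and Kif23, the motor of centralspindlin, 0.21 ± 0.15. For these 3 motors WT replicate 1 was above at least 1 KO array.

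The 3 spindle-associated genes lay close together. Nusap1, which bundles spindle microtubules (chr2:119475072-119475131), had 1.15, 1.21 and 1.29 in KO and 1.13, 0.92 and 0.71 in WT. KO replicate 1 and WT replicate 1 again nearly met (difference 0.30 ± 0.12; limma adjusted p = 0.306). Tpx2, the activator of Aurora A on the spindle, had 0.28 ± 0.16, and Prc1, which cross-links the microtubules of the midzone, 0.29 ± 0.13, with all 4 tested Prc1 probes positive (0.07 to 0.37).

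Of the condensation genes, Ncapg, a condensin I subunit (chr5:46091297-46091355), had 1.66, 1.88 and 1.98 in KO and 1.68, 1.45 and 1.32 in WT. KO replicate 1 lay just under WT replicate 1, so the groups overlapped (difference 0.35 ± 0.13, 1.28-fold; limma adjusted p = 0.267). A dimmer Ncapg probe gave 0.57 ± 0.14 with no overlap (limma adjusted p = 0.137). Mki67, whose protein Ki-67 coats mitotic chromosomes and is the usual stain for cycling cells, had 4.62, 4.53 and 4.74 in KO and 4.63, 4.29 and 4.09 in WT. Its difference of 0.30 ± 0.15 had an adjusted p of 0.395 in limma, with WT replicate 1 inside the KO range. Top2a, the topoisomerase that untangles sister chromatids, had 0.22 ± 0.14, and Ncapd2, another condensin I subunit, 0.26 ± 0.14.

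The last group, the anaphase-promoting complex and the genes it acts on, held the exception. Espl1, which encodes separase, the protease that cuts cohesin (chr15:102154674-102154733), had 1.53, 1.31 and 1.57 in KO and 1.29, 1.07 and 1.01 in WT. The KO values were all above the WT values, with KO replicate 2 and WT replicate 1 close to each other (difference 0.35 ± 0.11, 1.27-fold; limma adjusted p = 0.225). Cdc20, the activator of the complex, had a difference of 0.22 ± 0.14, and Ube2c, its ubiquitin-conjugating enzyme, 0.30 ± 0.16, both with overlapping groups. Pttg1 encodes securin, which inhibits separase until anaphase (chr11:43233801-43233860). Its signals were 3.52, 3.45 and 3.41 in KO and 3.52, 3.51 and 3.40 in WT. It had the smallest standard error of the 35 genes. WT replicate 3 was again lowest, but only just under KO replicate 3, and WT replicate 2 lay at the level of WT replicate 1 (difference -0.02 ± 0.08; limma adjusted p = 0.938). Its second, dimmer probe gave -0.12 ± 0.12.

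**Figure D3:**
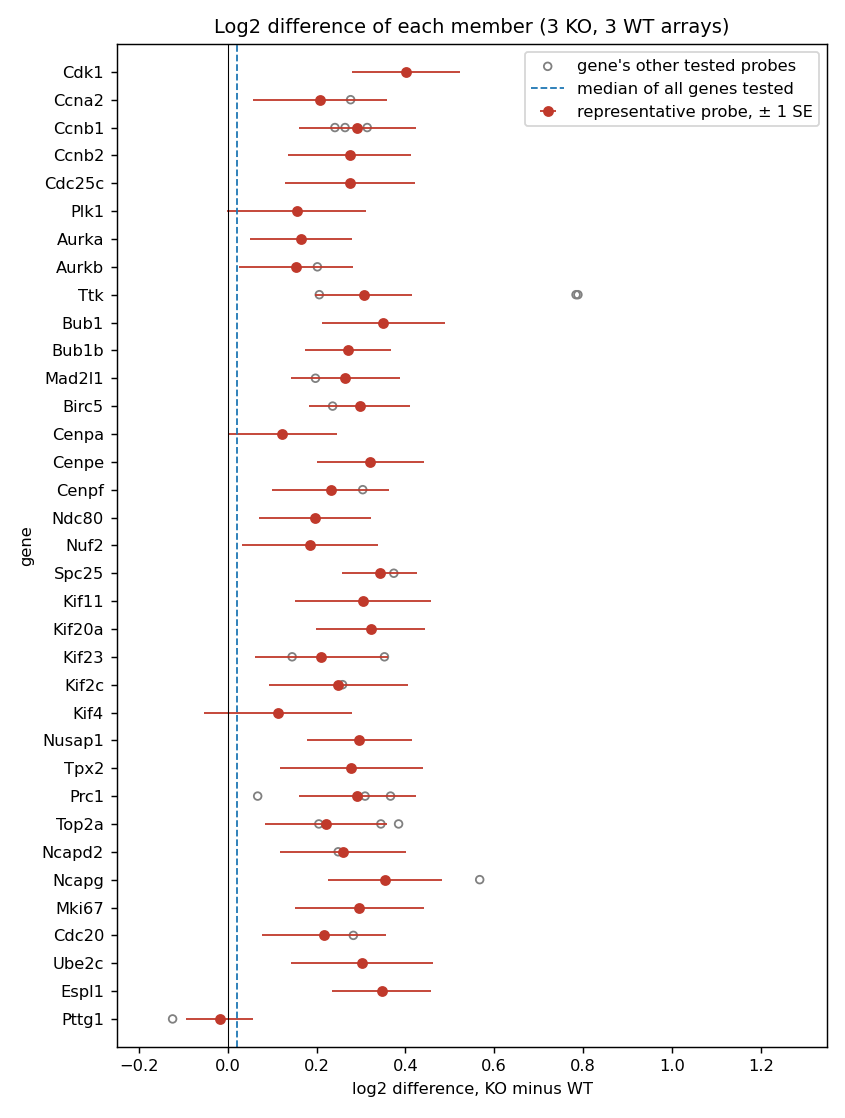
Log2 difference, KO minus WT, of each gene by its brightest tested probe (red, bar of ± 1 SE, 3 arrays per group) and by its other tested probes (open circles). Of the 35 genes, 34 lie right of 0, between 0.11 and 0.40, with Pttg1 at -0.02; the dashed line is the median of all genes tested, 0.02.

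The other tested probes of the genes gave differences of the same sign as the brightest one. Of 60 member probes tested, 25 were not the brightest of their gene. Positive differences were seen for 24 of these 25, with a median of 0.28, and 9 had an unadjusted limma p under 0.05. By their brightest probes, 55.8% of all genes had positive differences, and 6.94% had such a p on the higher side and 8.03% on the lower side. The same shares over the dimmer probes of all genes were not computed. With no filter on dim probes, 65.4% of all genes were positive and 24.3% had such a p on the higher side. Of the 16 genes with more than 1 tested probe, 15 had positive differences by every probe, the exception being Pttg1, with both probes negative. Probes of one gene read the same samples and are not replicates.

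Further cell cycle genes were counted in lists, also chosen with earlier results of these data known. Of 128 other genes of mitosis and its regulation tested, 119 had positive differences, against 55.8% of all genes, with a median of 0.19. None passed limma at an adjusted p under 0.05, against 0.013% of all genes on the higher side and 0.0651% on the lower side. At an unadjusted limma p under 0.05, 31 were higher, against 6.94% of all genes, and 0 were lower, against 8.03%. In the spindle and cytokinesis list all 25 were positive (median 0.25). Troap, a protein of microtubules and spindle, had -2.76, -3.18 and -3.12 in KO and -3.40, -3.62 and -3.58 in WT (0.51 ± 0.13; limma adjusted p = 0.155), and Dlgap5, a spindle assembly protein, had a difference of 0.44 ± 0.12. In the checkpoint and kinetochore list 36 of 37 were positive (median 0.22), led by Cenpi (0.40 ± 0.11) and Ska3 (0.41 ± 0.14). WT replicate 3 held the lowest value for 20 of the 25 and for 31 of the 37.

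The regulators of mitotic entry had 13 of 14 positive differences (median 0.18), with Plk4, the kinase of centriole duplication, at 0.34 ± 0.11 and Fbxo5, which encodes an inhibitor of the anaphase-promoting complex, at 0.34 ± 0.12. Condensin and cohesin genes had 14 of 16 (median 0.16), with Pds5a, a cohesin regulator, at 0.23 ± 0.07 and Cdca5, which encodes sororin, at 0.33 ± 0.11. Core subunits and partners of the anaphase-promoting complex, which are needed outside mitosis too, had a median of 0.05 (13 of 14 positive, 9 of 14 with median centring), with Anapc11 at 0.18 ± 0.07 and Cdc27 at 0.25 ± 0.14. Among the transcription regulators of G2/M genes 18 of 22 were positive (median 0.10; 15 of 22 with median centring), with the E2F repressors E2f8 at 0.38 ± 0.12 and E2f7 at 0.33 ± 0.12. None of the genes named in these lists passed the adjusted threshold in limma.

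DNA replication genes also had mostly positive differences. Of 28 tested, 27 were positive with a median of 0.23, and WT replicate 3 was lowest for 22. Their median deviation was 0.08, 0.06 and 0.16 on KO replicates 1, 2 and 3, against -0.01, -0.12 and -0.23 on WT replicates 1, 2 and 3. Unlike for the 35 genes, the median of WT replicate 1 lay below those of all KO arrays. This was not particular to replication genes. It also held for checkpoint and kinetochore genes (-0.01 on WT replicate 1, against 0.03, 0.10 and 0.21 on KO replicates 1, 2 and 3), regulators of mitotic entry and the anaphase-promoting complex. It did not hold for the spindle and cytokinesis, condensin and cohesin, and transcription regulator lists. Pcna, the replication clamp, had 5.49, 5.62 and 5.54 in KO and 5.33, 5.22 and 5.23 in WT, and Ccne1, the cyclin of S phase entry, had a difference of 0.29 ± 0.09. The difference between the mitotic and the replication genes was not tested. In the list of G1 cyclins, CDK inhibitors and p53 genes 9 of 16 were positive (median 0.07). Cdkn2a, which encodes the inhibitors p16INK4a and p19ARF, had 2.33, 2.39 and 2.22 in KO and 2.92, 2.79 and 3.19 in WT, a difference of -0.65 ± 0.12 (limma adjusted p = 0.0887). Cdkn1a, which encodes p21, had 3.45, 3.14 and 3.35 in KO and 3.91, 3.65 and 3.67 in WT (-0.43 ± 0.12; limma adjusted p = 0.169). For both inhibitors all KO values lay below all WT values, WT replicate 1 included. The same held for the cyclin gene Ccnd2 (-0.27 ± 0.09; limma adjusted p = 0.249). The list thus had 3 genes with all KO values below all WT values, against 10.4% of all genes. Another 3 had them all above, against 12%. The other CDK inhibitors of the list had overlapping groups and mostly positive differences. Cdkn1c had a difference of 0.68 ± 0.28, Cdkn2d 0.27 ± 0.13, Cdkn2c 0.24 ± 0.14 and Cdkn1b 0.10 ± 0.13, while Cdkn2b had -0.18 ± 0.15.

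**Figure D4:**
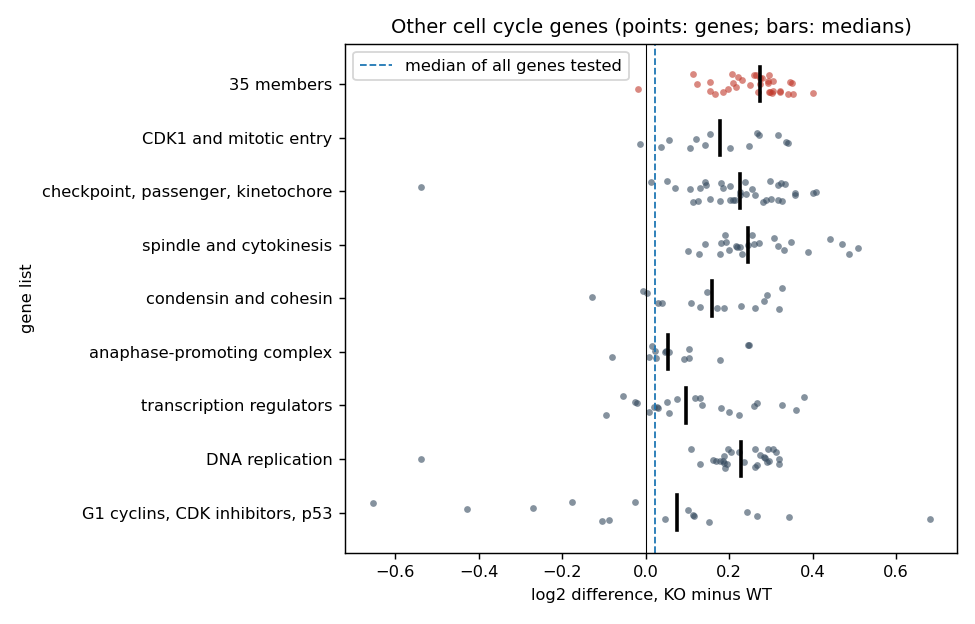
Log2 differences, KO minus WT, of the 35 genes (red) and of the genes of 8 other cell cycle lists (dark blue), with list medians as bars. The median was 0.27 for the 35 genes, 0.25 for spindle and cytokinesis genes, 0.23 for DNA replication genes and 0.05 for the anaphase-promoting complex, against 0.02 for all genes tested (dashed).

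In a bulk culture, a change in the share of cycling cells and a change in these RNAs per cell cannot be told apart. Nor can it be seen which cells of a mixed culture held them. Beside the mitotic genes, the signals of cell type markers were summed on each array, and the log2 of the sum was taken. The brightest markers weigh most in such a sum. For 15 macrophage markers it was 10.44 to 10.55 on KO arrays and 10.34 to 10.37 on WT arrays. Of their 15 differences 13 were positive, with a median of 0.13. For 8 osteoblast lineage markers the log2 of the sum was 7.12 to 7.85 in KO and 8.49 to 8.64 in WT, with all 8 differences negative. Stromal markers (12 tested) had a median difference of -0.07. Single markers did not all follow these sums. On WT replicates 1, 2 and 3, the macrophage marker Mrc1 had 4.32, 4.23 and 3.77, and Itgam had 3.96, 3.92 and 4.17. For stromal markers the log2 of the sum was 6.82, 6.85 and 6.68 on WT replicates 1, 2 and 3 and 6.67, 6.73 and 6.89 on KO replicates 1, 2 and 3. Markers of haematopoietic progenitors, erythroid and granulocytic cells (7 tested) had 3.43, 3.12 and 3.33 in WT and 3.30, 3.31 and 3.36 in KO. The part of these cells in the mitotic differences was not tested.

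**Figure D5:**
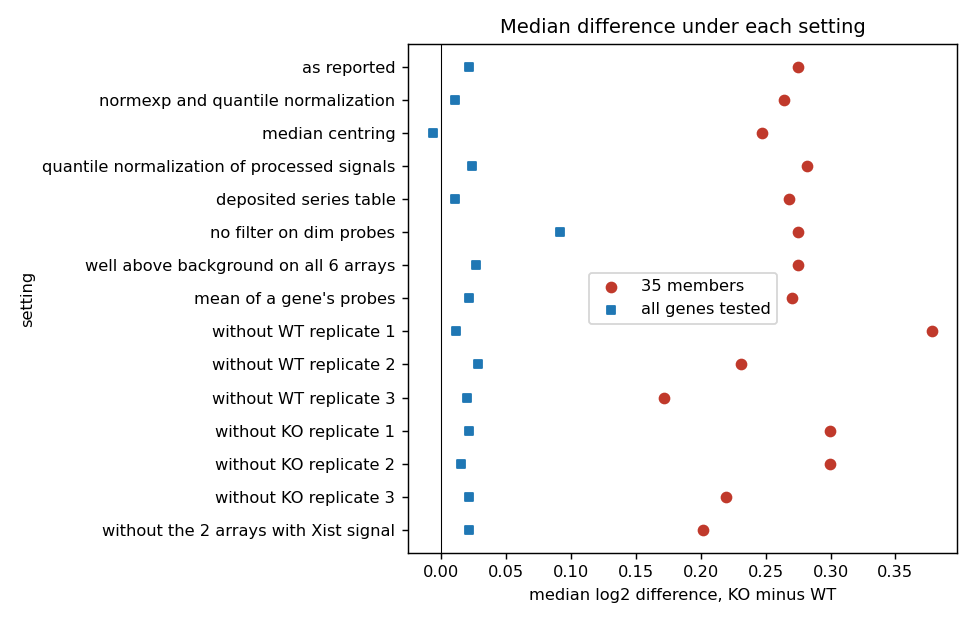
Median log2 difference, KO minus WT, of the 35 genes (red circles) and of all genes tested (blue squares) as reported and under other settings. The 35 genes stay between 0.17, without WT replicate 3, and 0.38, without WT replicate 1.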

How the data were processed

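RNA of 3 KO and 3 WT samples was measured on 1 Agilent array each, with groups and replicate numbers taken from the sample titles. The description and extraction fields of the labels speak of human blood and were not followed. Intensity values are the scanner software's processed signals, per the file headers (Agilent Feature Extraction 10.7.1.1; 9.1 in the submitters' processing notes). The deposited series table, used as an alternative, holds log2 values with the same median of 6.15 in every column. Scale and direction followed the scanner values of the same arrays (r from 0.998 to 1.000). The sources used here do not give any further step.

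Processed signals were log2-transformed and set relative to the 75th percentile of the non-control probes of the same array. Outlier spots (49 to 131 per array) were left out and spots of a probe averaged. No non-control spot was saturated. A probe was tested if all arrays of either group read it well above background (a share of at least 0.5 of its spots, and 2 values per group): 28607 probes, 15371 genes. Names came from RefSeq (GRCm38.p6) by accession where held, otherwise from the file. Differences were fitted in R 4.3.3 with limma 3.58.1 (lmFit, eBayes, two-sided, 4 residual and 2.65 prior degrees of freedom), adjusted by Benjamini-Hochberg over all probes at 0.05. The brightest tested probe stood for a gene. The fit was also run on simulated data with independent noise per probe. That run says nothing on genes that move together from array to array. The number of arrays limits the precision.

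The members and lists were chosen with earlier results of these data known. Per-array values are given for members with an unadjusted p under 0.05, for the 3 largest and 3 smallest differences, and for further members chosen for their roles after their values were seen. Lists name up to 2 genes with the smallest p, and Ccnd2 and the remaining CDK inhibitors are named as well. Protein sequences were not used here.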

Additional observations from a re-analysis of the deposited data

How the results depend on the processing

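No gene of the 35 passed an adjusted p of 0.05 under any alternative run, and the median difference stayed positive in all of them: 0.25 to 0.28 under other scalings, the deposited table, other filters and probe averaging, and 0.17 to 0.38 when 1 sample was left out. The count of 11 genes with an unadjusted limma p under 0.05 was 3 with median centring (4.55% of all genes), 3 without the filter on dim probes (24.3%), 4 with the replicate number as a block (6.97%) and 3 without both arrays with Xist signal (4.9%). It ranged from 2 to 31 when 1 sample was left out (4.77% to 6.63%). Without the filter the share of the 35 genes was thus below that of all genes. The count of 10 genes with all KO values above all WT values was 4 with median centring (7.94% of all genes) and ranged from 10 to 34 when 1 sample was left out (16.6% to 19.6%). It was 10 without the filter, where 30.9% of all genes were so arranged, no higher share among the 35 genes. Without both arrays with Xist signal, 1 gene (Pttg1) had all KO values below all WT values. Leaving out 1 sample, the Kif4 difference ranged from -0.0062 to 0.303 and that of Pttg1 from -0.056 to 0.0041, and Kif4 had -0.044 without both arrays with Xist signal. The cause was not tested. Without the filter on dim probes the median of all genes was 0.09, against 0.02.

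Samples numbered 1, 2 and 3 had correlations of their deviations of 0.06, 0.15 and -0.03 across all probes tested, so the numbers were not taken as pairs. Over the 35 genes alone the correlations were 0.27, 0.54 and 0.09. With the block 0 genes of all tested passed the adjusted limma threshold, against 12 without it. A slide or scan block could not be fitted because all arrays shared both. With 3 arrays per group the SE of a difference was 0.08 to 0.17 on the log2 scale. All 35 genes were well above background, so dim signal limits only some of their second probes.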
